A study of Drosophila melanogaster with 9 samples.

Results

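The 2 cold enhancer regions of pastrel (pst) and RNaseX25 were described through every accessible site that was counted around them. On chromosome arm 3L of dm6, a window of 10000 bp was set around pst, from 2275 bp left to 4737 bp right of the gene, and one of 11000 bp around RNaseX25, from 5588 bp left to 3551 bp right. All consensus peaks of the deposited count table that touch these windows were taken, 6 of 17175 peaks, with 4 in the pst window and 2 in the RNaseX25 window. In each window the peak with the largest overlap with the reporter fragment of the study (pst_E1 or RNaseX25_E1) was called the enhancer peak. This name records the overlap only and does not place the enhancer activity within the peak. The pst enhancer peak also covers the start sites of pst. The other 4 peaks were named after what lies under them: the pst last exon, and the promoters of CTCF, Sec63 and HP4. The study picked its fragments from these same libraries and kept the pst and RNaseX25 regions because their fragments drove more reporter expression in the cold. The accessibility of the 2 enhancer peaks is therefore given as a description with no test, and only the other 4 peaks, which entered by position, were tested.

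In ATAC-Seq a transposase inserts adaptors into open DNA, so that reads pile up at promoters and enhancers and their number at a site reflects how accessible it is. An enhancer is a stretch of DNA that binds transcription factors and raises the transcription of a gene, often from within or next to that gene. In Drosophila, pst is known as a gene at which natural variants alter resistance to Drosophila C virus, and RNaseX25 encodes a ribonuclease of the RNase T2 family. Sec63 encodes a component of the protein translocation channel of the endoplasmic reticulum, CTCF an insulator protein, and HP4 a protein of heterochromatin.

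The 9 libraries were made from S2R+ cells, an embryo-derived Drosophila melanogaster line that resembles hemocytes, without any genetic change or drug. After 36 h at 25 °C, cultures spent 24 h at 14, 25 or 29 °C, with 3 replicate experiments at each temperature. Transposition was run on 75000 cells for 30 min at 25 °C in every library. The plated cell number is equal at all temperatures in the sample descriptions and larger at 14 °C in the published methods, and if it did differ, plating and temperature cannot be told apart.

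Between 3290670 and 10805366 reads were counted in peaks per library. Replicate 2 at 14 °C stood apart from its group: the chi-square per degree of freedom was 44.2 and 41.6 against replicates 1 and 3, which differed from each other by 3.69, and its log2 counts had an SD over peaks of 1.06, against 0.74 and 0.77. Replicate 3 at 25 °C (24.9 and 12.1, against 5.59 between the others) and replicate 2 at 29 °C (18.2 and 16, against 3.59) also differed from their groups, with SDs of 1.15, against 0.89 and 0.94, and of 1.32, against 1.01 and 1.04. The SD also rose with temperature, both among the replicates that stood apart and among the others. Replicates 1 and 3 at 14 °C had the lowest SDs of the 9 libraries. Of 6 plasmatocyte-like marker genes, srp, eater, Sr-CI and crq had a peak within 500 bp of a transcription start site (TSS) and Hml and NimC1 had none. Among 4 genes of other cell types, elav and repo had such a peak, while vas and Act88F had none.

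The sequence under the enhancer peaks is shown first, since the maps and motif matches described later refer to it. The pst enhancer peak lies at chr3L:7359904-7360404. The gene runs from 7357275 to 7360263 on the minus strand, with start sites at 7360263 and 7360116. Both start sites lie in the peak. Of the peak, 360 bp lie in the gene, comprising 239 bp of 5′ untranslated region, 104 bp of coding sequence and intron. The remaining stretch, chr3L:7360264-7360404 on the minus strand, is upstream of the gene and holds a long AT-rich run.
pst enhancer peak upstream of the gene: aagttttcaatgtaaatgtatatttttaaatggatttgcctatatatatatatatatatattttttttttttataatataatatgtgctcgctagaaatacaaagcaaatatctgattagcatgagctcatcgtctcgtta

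The RNaseX25 enhancer peak lies at chr3L:7969812-7970312, between genes, and ends 276 bp before the start site of RNaseX25 at 7970588 on the plus strand. Its first 300 bases, chr3L:7969812-7970111 on the plus strand, hold the single match to an ETS factor motif found in either enhancer peak, shown in capitals.
RNaseX25 enhancer peak, first 300 bases: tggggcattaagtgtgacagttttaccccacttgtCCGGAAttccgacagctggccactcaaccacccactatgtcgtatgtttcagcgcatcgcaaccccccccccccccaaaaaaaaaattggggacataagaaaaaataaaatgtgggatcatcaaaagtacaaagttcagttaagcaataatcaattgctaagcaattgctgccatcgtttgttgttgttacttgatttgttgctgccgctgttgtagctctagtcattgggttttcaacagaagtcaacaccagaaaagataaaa

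The pst enhancer peak was most accessible at 14 °C, intermediate at 25 °C and least accessible at 29 °C. Its normalized read counts (CPM, scaled to library size with TMM factors) were 63.4, 104 and 63.7 at 14 °C, 49.4, 51.1 and 52.7 at 25 °C, and 41.1, 34.5 and 31.2 at 29 °C for replicates 1, 2 and 3. No library of one temperature overlapped those of another; over all peaks, 12.8% were higher without overlap at 14 than at 29 °C, 4.59% at 14 than at 25 °C and 4.28% at 25 than at 29 °C. The means were 77.0 ± 23.4, 51.1 ± 1.62 and 35.6 ± 5.06 CPM at 14, 25 and 29 °C (SD, n = 3 each). The log2 fold change was 1.11 ± 0.21 (SE) for 14 against 29 °C, a fold of 2.16. It was 0.60 ± 0.21 for 14 against 25 °C and 0.51 ± 0.21 for 25 against 29 °C, so that 46.2% of the log2 change fell between 25 and 29 °C. Among same-numbered replicates the log2 ratio of 14 over 29 °C was 0.62, 1.59 and 1.03, with replicate 2 the highest. Without replicate 2 at 14 °C the mean at 14 °C was 63.6 CPM and the log2 fold change against 29 °C was 0.83 ± 0.16.

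The RNaseX25 enhancer peak showed the same order of temperatures at a lower level. It had 40.3, 71.4 and 40.4 CPM at 14 °C, 30.6, 25.0 and 35 CPM at 25 °C, and 21.8, 21.1 and 15.7 CPM at 29 °C. Again the libraries of the 3 temperatures did not overlap, and replicate 2 was the highest of the libraries at 14 °C. The means were 50.7 ± 17.9, 30.2 ± 5.03 and 19.5 ± 3.31 CPM (SD, n = 3 each). The log2 fold change was 1.37 ± 0.26 for 14 against 29 °C, a fold of 2.58, with 0.75 ± 0.26 for 14 against 25 °C and 0.62 ± 0.26 for 25 against 29 °C. Of the log2 change, 45.0% fell between 25 and 29 °C. Same-numbered replicates gave log2 ratios of 14 over 29 °C of 0.89, 1.76 and 1.36. Without replicate 2 at 14 °C, the log2 fold change against 29 °C was 1.03 ± 0.24 and the mean at 14 °C was 40.3 CPM.

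**Figure D1:**
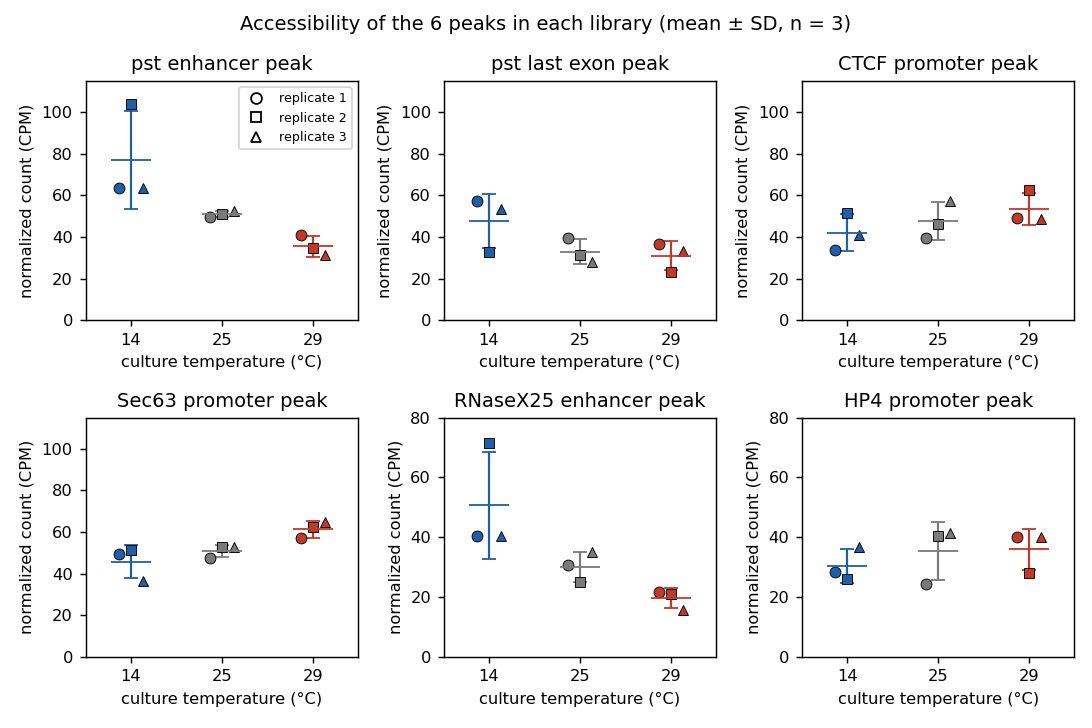
CPM of the 6 peaks (vertical axes) at 14, 25 and 29 °C, with 1 point per library, its shape giving the replicate, and the mean ± SD of 3 libraries as lines. The pst and RNaseX25 enhancer peaks step down with temperature with no overlap between groups (means 77.0, 51.1 and 35.6 CPM for pst), while the HP4 promoter peak overlaps at all temperatures.

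Both enhancer peaks were ordinary in height, with a mean count of 387.0 for pst, above 70.2% of all peaks, and 241.8 for RNaseX25, above 45.5%. By log2 fold change for 14 against 29 °C, RNaseX25 held rank 22 and pst rank 224 of 17175, where all peaks had a median of 0.02, with 5% below -0.73 and 5% above 0.96. For 14 against 25 °C the ranks were 82 and 378, and for 25 against 29 °C 532 and 1217. A strict step order, with each library at 14 °C above each at 25 °C and each of these above each at 29 °C, was found at 152 peaks (0.885%), among them both enhancer peaks, and the opposite order at 163 (0.949%). Since the regions were picked for cold accessibility, these ranks describe the choice.

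The 2 enhancer peaks were also set against each other inside each library. The log2 ratio of counts of RNaseX25 over pst was -0.65, -0.54 and -0.66 at 14 °C, -0.69, -1.03 and -0.59 at 25 °C, and -0.92, -0.71 and -0.99 at 29 °C. The libraries at 14 °C lay above those at 29 °C and those at 25 °C overlapped both, with means of -0.62, -0.77 and -0.87 by rising temperature. The peaks are 609407 bp apart on the same chromosome arm.

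The other peaks of the windows differed less with temperature. In the fit of all libraries without pairing of replicates, none of the 4 passed the test in any comparison. In edgeR's quasi-likelihood test over all peaks, 210 of 17175 (1.22%) passed an adjusted p of 0.05 for 14 against 29 °C, 96 higher (0.559%) and 114 lower (0.664%). An unadjusted p under 0.05 was reached by 5720 peaks (33.3%). The 2 enhancer peaks were past the adjusted threshold, which describes how they were picked. For 14 against 25 °C 1 peak of the whole table passed (0.00582%) and for 25 against 29 °C none did, with 916 and 786 peaks under an unadjusted p of 0.05. With the replicate number as a block, 479 peaks (2.79%) passed for 14 against 29 °C, and 2159 (12.6%) passed with DESeq2. Of the 4 other peaks, 2 had an unadjusted p under 0.05 for 14 against 29 °C, where 33.3% of all peaks did, and none in the other comparisons, and DESeq2 called 0 of them in each, where it called 0.425% of all peaks for 14 against 25 °C and 0.116% for 25 against 29 °C. Same-numbered replicates at 14 and 29 °C varied together. With the replicate block on only these libraries, 3 of the 4 passed, where 58.6% of all peaks did. That fit was added after the data were seen.

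The pst last exon peak, at chr3L:7357702-7358202, consists of coding sequence of pst over its whole length and lies 989 bp from the nearest start site, that of CTCF. It had 57.2, 32.9 and 53.2 CPM at 14 °C, 39.7, 31.3 and 27.8 CPM at 25 °C, and 36.6, 23.0 and 33.4 CPM at 29 °C. Replicate 2 at 14 °C fell among the warmer libraries, so the groups overlapped. The log2 fold change was 0.63 ± 0.26 for 14 against 29 °C (edgeR adjusted p = 0.134), and 0.84 ± 0.23 without replicate 2 at 14 °C (edgeR adjusted p = 0.0173), where 49.7% of all peaks passed. The log2 ratios of same-numbered replicates were all positive, at 0.64, 0.52 and 0.67, and with the replicate block on the libraries of only these 2 temperatures the adjusted p was 9.33e-05 in edgeR, where 58.6% of all peaks passed.

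The Sec63 promoter peak, at chr3L:7360454-7360954, starts 49 bp beyond the pst enhancer peak and contains the start site of Sec63 at 7360561. Its levels lay in the opposite order to those of that peak, with 49.5, 51.2 and 36.5 CPM at 14 °C, 47.7, 52.7 and 52.7 CPM at 25 °C, and 57.0, 62.2 and 64.8 CPM at 29 °C. The libraries at 14 and 29 °C did not overlap, nor did those at 25 and 29 °C, where 15.1% and 7.91% of all peaks were likewise lower without overlap at the colder temperature. The log2 fold change was -0.42 ± 0.17 for 14 against 29 °C and did not pass (edgeR adjusted p = 0.128). It was -0.52 ± 0.18 without replicate 2 at 14 °C (edgeR adjusted p = 0.0317), and with the replicate block on these 2 temperatures alone the adjusted p in edgeR was 0.00578.

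The CTCF and HP4 promoter peaks overlapped between all temperatures. The CTCF promoter peak, at chr3L:7356642-7357142, covers the start site at 7356713 and 240 and 27 bp of annotated Quasimodo transposon copies. It had 33.9, 51.4 and 40.8 CPM at 14 °C, 39.4, 46.3 and 57.2 CPM at 25 °C, and 49.1, 62.5 and 48.8 CPM at 29 °C, with a log2 fold change of -0.34 ± 0.20 for 14 against 29 °C (edgeR adjusted p = 0.23, and 0.0235 with the block on these 2 temperatures alone). Reads from transposon copies may map to several places, and reads without a unique position were removed before counting. The HP4 promoter peak, at chr3L:7975856-7976356, crosses the edge of the RNaseX25 window and holds the HP4 start site at 7976154. Its levels were 28.5, 25.9 and 36.7 CPM at 14 °C, 24.4, 40.4 and 41.5 CPM at 25 °C, and 40, 28.1 and 40 CPM at 29 °C, with a log2 fold change of -0.24 ± 0.25 for 14 against 29 °C (edgeR adjusted p = 0.482).

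**Figure D2:**
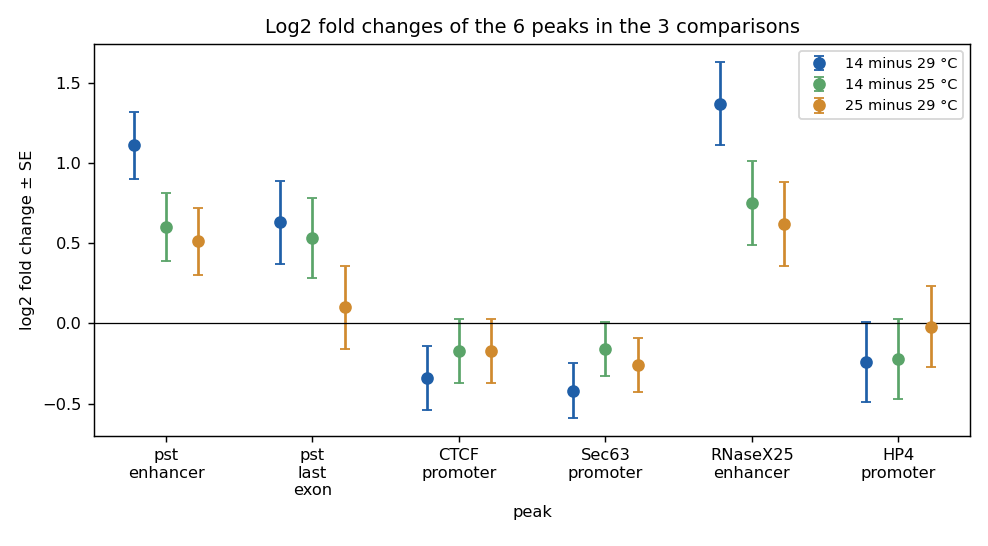
Log2 fold changes (vertical axis) of the 6 peaks for 14 minus 29 °C, 14 minus 25 °C and 25 minus 29 °C, as points with their standard errors. The enhancer peaks are positive in all 3 comparisons (1.11, 0.60 and 0.51 for pst), the Sec63 and CTCF promoter peaks are negative in all 3, and the pst last exon peak is close to 0 for 25 minus 29 °C (0.10 ± 0.26).

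A ratio taken inside a library does not depend on the scaling between libraries. The log2 ratio of the pst enhancer peak to the summed other peaks of its window was -1.15, -0.38 and -1.03 at 14 °C, -1.36, -1.35 and -1.39 at 25 °C, and -1.79, -2.1 and -2.24 at 29 °C. The temperatures did not overlap on this scale, with replicate 2 at 14 °C the highest. The enhancer peaks were picked for cold accessibility, and the share of all peaks that separate in such a ratio was not taken for either window. The reference peaks moved as well, with log2 fold changes for 14 against 29 °C of -0.42 (Sec63 promoter), -0.34 (CTCF promoter) and 0.63 (pst last exon). Against the adjacent Sec63 promoter peak alone, the mean log2 ratio was 0.73 ± 0.34 at 14 °C, 0.0 ± 0.05 at 25 °C and -0.79 ± 0.3 at 29 °C (SD, n = 3 each), so the enhancer peak stood above its neighbour in the cold, level with it at 25 °C and below it at 29 °C.

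For RNaseX25 the HP4 promoter peak is the only other peak of the window. The log2 ratio was 0.5, 1.46 and 0.14 at 14 °C, 0.33, -0.7 and -0.25 at 25 °C, and -0.88, -0.42 and -1.34 at 29 °C. The means were 0.7 ± 0.68, -0.21 ± 0.52 and -0.88 ± 0.46 (SD, n = 3 each). The libraries at 14 °C were all above those at 29 °C, but on this scale the libraries at 25 °C overlapped both.

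**Figure D3:**
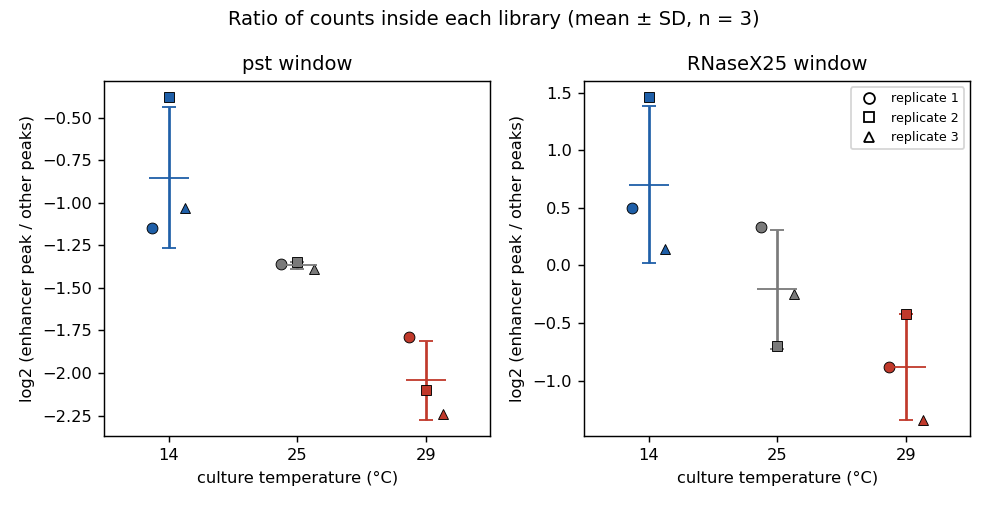
Log2 ratio of the count in the enhancer peak to the summed count in the other peaks of its window (vertical axes) in each library at 14, 25 and 29 °C, with the mean ± SD of 3 libraries; the 2 vertical axes differ in range. The pst ratio has means of -0.85, -1.37 and -2.04 with no overlap, and the RNaseX25 ratio overlaps between 25 °C and each other temperature.

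The enhancer peaks were then set beside the peaks around them. Within 50000 bp of the pst enhancer peak lie 20 other peaks, whose log2 fold changes for 14 against 29 °C ran between -0.55 and 0.63 with a median of -0.23. Around the RNaseX25 enhancer peak 9 others ran between -0.34 and 0.71 with a median of 0.02. None of these 29 exceeded the enhancer peak at its centre, but the central peaks were picked for cold accessibility, so this describes the choice. In edgeR 0 of them passed the test, against 1.22% of all peaks. Around pst and RNaseX25, 4 of 20 and 1 of 9 had an unadjusted p under 0.05, against 33.3% of all peaks. DESeq2 called 0 and 1, where it called 12.6% of all peaks. Without replicate 2 at 14 °C, 9 and 2 passed, against 49.7% of all peaks. With the replicate block on only these 2 temperatures 10 and 4 passed, against 58.6%. The nearest peaks outside the windows, at 5007 and 3362 bp from the pst window, had log2 fold changes of -0.0 ± 0.25 (near lncRNA:CR45833) and -0.54 ± 0.30 (near Sh3beta, edgeR adjusted p = 0.201). Those at 16664 and 2854 bp from the RNaseX25 window had 0.26 ± 0.20 (at exex, edgeR adjusted p = 0.348) and -0.32 ± 0.19 (at nmo, edgeR adjusted p = 0.23).

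The counted peak covers only a portion of the pst fragment tested in the reporter. By the exact match of its primers to the genome, pst_E1 spans chr3L:7359514-7360484 (971 bp). It contains the whole enhancer peak, which makes up 51.6% of the fragment, and 31 bp of the Sec63 promoter peak. The derivative E1n lacks chr3L:7359923-7360294 (372 bp), which lies entirely inside the enhancer peak and is 74.3% of it. In the study's reporter, cold activity did not need this central piece, while the ends of the fragment were needed. The derivative E1o lacks chr3L:7359615-7360295 (681 bp). The study compared these pieces and placed sequence needed for reporter activity in the stretch that E1n keeps and E1o lacks. This stretch, chr3L:7359615-7359922 (308 bp), shares only 19 bp with the enhancer peak, and its other 289 bp are in no counted peak. It consists of coding sequence and introns of pst, and the count table has no row for it, so its accessibility was not analysed here.

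**Figure D4:**
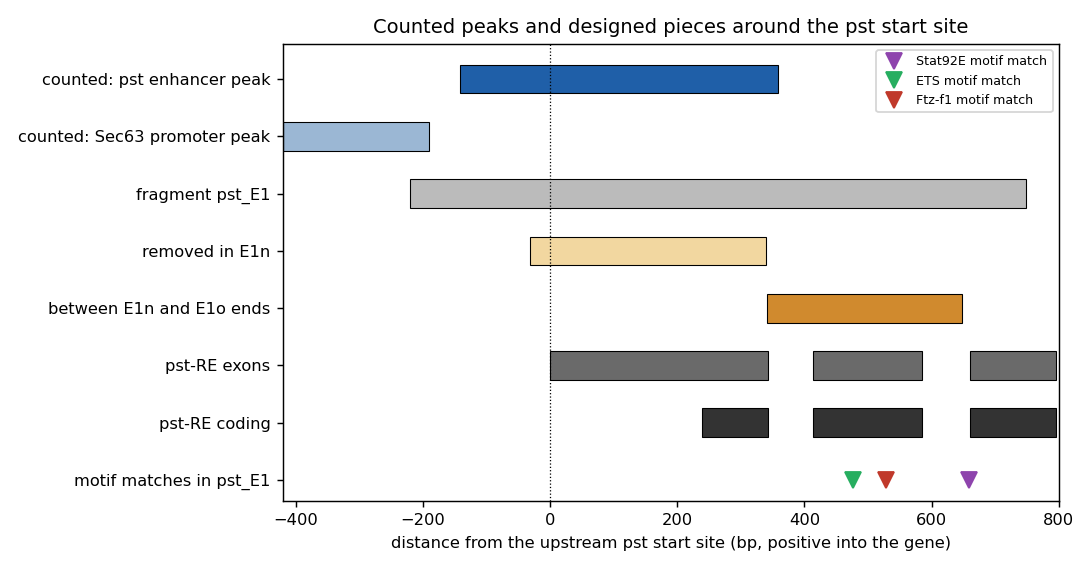
Map of the pst start region, with distance in bp from the upstream pst start site (0, positive into the gene) on the horizontal axis and 1 row each for the 2 counted peaks, the fragment pst_E1, the piece removed in E1n, the stretch between the ends of the E1n and E1o deletions, the exons and coding parts of the transcript pst-RE, and motif matches (triangles). The deletion in E1n (372 bp) falls inside the enhancer peak, whereas the stretch between the ends (308 bp) overlaps it by 19 bp.

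The 3 factor motifs that were searched on both strands were TTCNNNGAA for Stat92E, the transcription factor of the JAK/STAT pathway, CCGGAA for ETS factors such as Pointed and Ets97D, and AAGGTCA for the nuclear receptor Ftz-f1. They were chosen because the study names these factors for the pst fragment. The pst enhancer peak held no match to any of the 3. All matches in pst_E1 were outside the peak: Stat92E at 7359600-7359608, ETS at 7359784-7359789 and Ftz-f1 at 7359732-7359738. The Stat92E match lies just outside the 308 bp stretch. The ETS and Ftz-f1 matches lie inside it and are given in capitals, read on the minus strand, in chr3L:7359655-7359874.
pst essential stretch: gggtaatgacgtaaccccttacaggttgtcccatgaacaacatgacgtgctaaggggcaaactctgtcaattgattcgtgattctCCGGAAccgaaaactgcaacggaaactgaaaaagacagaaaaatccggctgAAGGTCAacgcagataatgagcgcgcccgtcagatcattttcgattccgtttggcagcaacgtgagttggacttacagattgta

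Among the 15999 peaks of the same width as these, 12.6% held a Stat92E match, 14% an ETS match and 4.46% an Ftz-f1 match. The RNaseX25 enhancer peak held 1 ETS match at 7969847-7969852 and neither of the others, the HP4 promoter peak held 1 Stat92E match, and the other 3 peaks held none. The longest RNaseX25 fragment, RNaseX25_E2, held a second ETS match outside the peak, at 7968759-7968764. A match says only that the letters are there.

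The small deletions that the study placed in E1n were mapped from 17 synthetic gene blocks, and d4 was not used here. None lies in the counted peak. The deletion d8 (7359600-7359602) removes the first 3 bases of the Stat92E match, d3 (7359774-7359791) removes the whole ETS match, and d5 (7359722-7359745) the whole Ftz-f1 match. The other larger ones are d1 (7359845-7359866), d2 (7359793-7359812), d6 (7359669-7359686) and d7 (7359628-7359658). In the reporter, the study found that d5 abolished activity. It found lower activity with d4, d7 and d8, mainly in the cold, and higher activity with d6 at all temperatures. Its text names no effect for d1, d2 or d3. As placed here, the deletions d9 to d18 lie within 7359723-7359772. Several of them can be shifted by a base and leave the same sequence, so their exact ends are not settled. The study describes them as a consecutive series of 5 bp each, and reports partly lower activity for d9 to d11 and d16 to d18.

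The gene blocks carried single-base differences from the reference genome. Written as the reference base, the position on 3L and the base in the block, all read on the minus strand, these were G7359819A in 17 of 17 blocks and A7359760G, A7359780G and A7359866C in 16 of 17 each. A7359780G makes a second CCGGAA directly next to the first, so that the 308 bp stretch holds 1 ETS match in the reference and 2 as designed. Both versions of this site, at chr3L:7359768-7359792 on the minus strand, are shown with the matches in capitals. Whether the cultured line carries the same base was not tested.
pst ETS site, reference: tctCCGGAAccgaaaactgcaacgg
pst ETS site, gene blocks: tctCCGGAACCGGAAactgcaacgg

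For RNaseX25 all 4 fragments of the study held the enhancer peak in full. RNaseX25_E1 spans 7969603-7970384 (782 bp), E2 7968618-7970699 (2082 bp), E3 7968618-7970384 (1767 bp) and E4 7969603-7970699 (1097 bp). E2 and E4 reach past the RNaseX25 start site at 7970588, and E1 and E3 end before it. The peak makes up between 24.1% (E2) and 64.1% (E1) of these fragments. The text of the study describes cold activity for RNaseX25_E1, E2 and E3. It gives no result for E4, which holds the peak as well.

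The 2 enhancer peaks were also set beside the peaks under the other candidate fragments. Of 39 candidate fragments placed on the genome, the smaller pst pieces left aside, 38 overlapped a counted peak by at least 1 bp. They held 51 different peaks, since 15 of the fragments reach more than 1 peak, and the median log2 fold change of these peaks for 14 against 29 °C was 0.61. The highest was the peak of pain_E, at 1.71 ± 0.26, and the lowest a peak of Prx2540-1_E, at -0.77 ± 0.21. The RNaseX25 enhancer peak held rank 6 and the pst enhancer peak rank 12 of the 51, of which 14 were above 1. The candidates include regions picked for warm activity and were chosen with these libraries in view, so this order is a description only. Another 9 fragments served to set up the reporter assay or for comparison (from Hsp23, sqh, Rpn13, Karybeta3, S2-1 and Reg069), and 6 of these held 5 peaks, between -0.66 ± 0.30 (S2-1_E) and -0.28 ± 0.25 (Rpn13_E1).

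**Figure D5:**
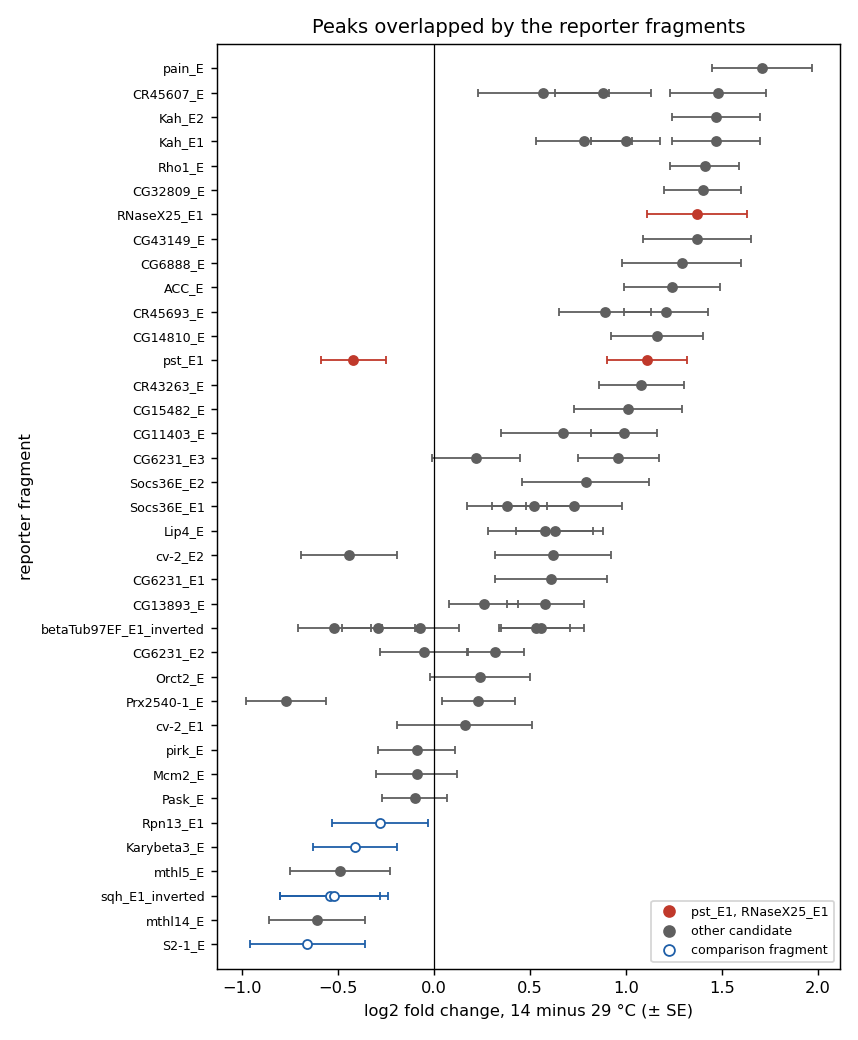
Log2 fold change for 14 minus 29 °C with its SE (horizontal axis) of every counted peak that a reporter fragment overlaps, 1 row per fragment, sorted by its highest peak, with fragments that share the same peaks drawn once. The pst enhancer peak (1.11) and the RNaseX25 enhancer peak (1.37), in red, lie among the 14 candidate peaks above 1, the Sec63 promoter peak (-0.42) lies in the row of pst_E1, and the peaks of the comparison fragments (open points) are below 0.

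The peaks most similar to each enhancer peak, by Pearson correlation of log2 CPM over the 9 libraries and at least 20000 bp away, included the other enhancer peak. For pst they were near CG9815 (r = 0.981), TfAP-2 (0.981), syd (0.978), RNaseX25 (0.978) and Pex7 (0.976). For RNaseX25 they were near apt (0.984), tRNA:Gly-GCC-1-4 (0.981), tRNA:Glu-CTC-3-1 (0.979), lncRNA:CR43751 (0.979) and pst (0.978). These peaks differed in how far they moved: the peak near Pex7 had a log2 fold change of 1.19 ± 0.20 for 14 against 29 °C, and that near TfAP-2 0.32 ± 0.15. The points share libraries and their depth, and no test was made. By Spearman correlation rho was 0.983 between the 2 enhancer peaks. Many peaks tie on that measure, with 10 peaks at or above the fifth place for pst, 3 of the 5 named ones among them, and 20 for RNaseX25, 2 of the 5 among them.

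Accessibility was also read at 15 genes, over each gene and 2000 bp upstream. They are hop and a selection of the genes that the study tested as regulators of the pst enhancer or names beside them. Ets96B, Eip74EF and upd1, which the study also names, were not included. All 15 had a peak, 86 in total. For 14 against 29 °C, 1 of 86 passed the edgeR test as higher and 0 as lower, against 0.559% and 0.664% of all peaks. Of the 86, 33 had an unadjusted p under 0.05, which 33.3% of all peaks had. The median log2 fold change was -0.33 with 22 positive, and -0.12 with 37 positive where offsets per library were fitted against peak height. With DESeq2, 5 were higher and 18 lower, where 6.65% and 5.92% of all peaks were. The counts depended on single libraries. Without replicate 2 at 14 °C 4 were higher and 42 lower, where 26.3% and 23.4% of all peaks were. Without replicate 3 at 25 °C 1 was higher and 1 lower, and without each of the other 7 libraries none passed. Without replicate 3 at 14 °C, 0 of all 17175 peaks passed, so that fit says nothing about these genes. No share of all peaks was taken without replicate 1 at 14 °C or without a library at 25 or 29 °C.

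The JAK/STAT pathway runs from Upd cytokines through the receptor Dome and the kinase Hop to Stat92E, and Socs36E encodes its feedback inhibitor. Among the ligands, the single upd2 peak had a log2 fold change of -0.61 and the 4 upd3 peaks a median of -0.44, with 1 positive at 0.52. The 2 dome peaks had -0.43 and -0.45, and the 4 hop peaks had a median of -0.2, with 2 of them positive under total-count scaling. The 6 Stat92E peaks had a median of -0.68 with the lowest at -1.17, and 1 of them passed as lower with the replicate block, where 1.48% of all peaks did. The 6 Socs36E peaks differed among themselves, with 4 positive up to 0.79 and the lowest at -0.79, 536 bp from its start site. In the edgeR fit of all libraries with TMM scaling none of these passed. With the offsets against peak height 3 Socs36E peaks passed as higher and 2 Stat92E, 1 upd3 and 1 dome peaks as lower, and the share of all peaks was not taken for that fit. Without replicate 2 at 14 °C 11 of the peaks of these genes passed, all lower, among them 4 of Stat92E and 3 of upd3. In that fit 23.4% of all peaks passed as lower.

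The receptor tyrosine kinase Pvr binds the growth factor ligands Pvf1, Pvf2 and Pvf3. All 7 peaks of Pvf3 had positive log2 fold changes, between 0.23 and 1.06, and the peak at chr2L:7147182-7147682 was the one that passed, at 0.90 ± 0.18 (edgeR adjusted p = 0.0423, and 0.0482 with the replicate block). It had 23.3, 24.8 and 27.5 CPM at 14 °C, 18.1, 19.9 and 22 CPM at 25 °C, and 13.9, 13.2 and 13.5 CPM at 29 °C. The temperatures did not overlap, as at 0.885% of all peaks in this order, but the peak is singled out here because it passed. With offsets per library fitted against peak height, its log2 fold change was 0.55 (edgeR adjusted p = 0.135) and 2 of the 7 Pvf3 peaks were negative, at -0.03 and -0.14. The 2 Pvf2 peaks had a median of 0.02, and -0.19 with the offsets, the 3 Pvf1 peaks -0.26 and the 4 Pvr peaks -0.38.

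Of the ETS factors, the single peak of Ets97D, which encodes a subunit of the GABP factor, had -0.08 ± 0.21 (edgeR adjusted p = 0.793), 0.08 with total-count scaling and -0.5 with the offsets against peak height. The activator pnt had 23 peaks with a median of -0.37 and 3 positive, but a median of 0.16 and 16 positive with the offsets against peak height. The repressor aop had 11 peaks with a median of -0.41, and 0.05 with these offsets. The single Ets21C peak had -0.58, and -0.05 with these offsets. All 11 peaks of ftz-f1, which encodes a nuclear receptor, were negative, with a median of -0.6 and the highest at -0.12, except that 1 was positive with total-count scaling. None of the ftz-f1 peaks passed in the edgeR fit of all libraries, while 2 passed as lower with the offsets, 9 without replicate 2 at 14 °C and 3 with DESeq2. Of all peaks, 23.4% passed as lower without that library and 5.92% with DESeq2, and no share was taken with the offsets.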

How the data were processed

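ATAC-Seq was performed on S2R+ cells at 3 temperatures. Per the submitters' processing notes, Trimmomatic 0.38, Bowtie2, SAMtools, Picard, MACS2 and DiffBind were used with dm6. The authors deposited raw counts of reads per consensus peak, not normalized, and these were the only values used. A second deposited table of normalized signal was not used. Whether peak starts count from 0 or 1 is not stated.

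For the tests of counts, edgeR 4.0.16 was run under R 4.3.3 (TMM, robust quasi-likelihood fit of all 9 libraries, temperature as factor, 6 residual degrees of freedom, Benjamini-Hochberg over 17175 peaks, adjusted p under 0.05). The SE is the log2 fold change over the square root of F. Alternatives were RLE and total-count scaling, loess offsets against peak height (span 0.3), a filter on mean count (182 or more, 12884 peaks), DESeq2 1.42.0, the replicate block, only the 2 temperatures compared, and each library left out. The block on only 2 temperatures was added after the data were seen. A prior count of 2 was used for log2 values. The procedure was tested on simulated data. Deviations of same-numbered libraries at 14 and 29 °C correlated at 0.634, 0.826 and 0.538, which pairs them by the rule used (over 0.1 in every pair). For 14 and 25 °C (0.671, -0.453, -0.737) and 25 and 29 °C (0.528, -0.488, -0.601) they were taken as unpaired.

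At the median mean count of 260.7 the counting error is 6.19%, against a biological coefficient of variation of 22.7%. No 2 libraries agreed within sampling noise. Genes are from Ensembl release 115 and sequences from RefSeq Release 6. Of 64 fragments with 2 primers, 57 were placed. Named peaks are all peaks of the windows, the 5 most similar, the regulator genes and the extreme fragments. The members and lists were chosen with earlier results of these data known.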

Additional observations from a re-analysis of the deposited data

How the results depend on the processing

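The log2 fold change of the enhancer peaks for 14 against 29 °C stayed positive under all 18 alternatives, between 0.83 and 1.24 for pst and between 1.03 and 1.51 for RNaseX25. The number of the 6 peaks past the threshold includes the 2 enhancer peaks, picked on this contrast, and is given as a description: 2 in the fit of all libraries and with DESeq2, 1 with offsets against peak height, with or without the replicate block, 0 with only the 2 temperatures compared and 5 with the replicate block on these alone. Leaving out single libraries gave 0 to 4, with 4 without replicate 2 at 14 °C, 2 without replicate 3 at 25 °C and 0 without each of the other 7. Of all peaks, 58.6% passed with the block on the 2 temperatures alone, 49.7% without replicate 2 at 14 °C and 0 without replicate 3 at 14 °C. No such share was taken with the offsets or with only the 2 temperatures. None was taken without replicate 1 at 14 °C or without a library at 25 or 29 °C. In the other comparisons the number of the 6 peaks past the threshold stayed at 0. The replicate block on all libraries changed no call among the 6 peaks. Of 216 values of the other 4 peaks, 204 kept their sign and call, 5 became significant as given above, and 7 changed sign, all for 25 against 29 °C, where leaving out single libraries gave -0.09 to 0.25 for the pst last exon peak and -0.17 to 0.19 for the HP4 promoter peak. The pst last exon peak had -0.06 and -0.09 without replicate 1 at 25 °C and replicate 2 at 29 °C, and the HP4 promoter peak 0.03 with total-count scaling, 0.01 with the filter, and 0.19, 0.07 and 0.08 without replicate 1 at 25 °C and replicates 1 and 3 at 29 °C. The cause was not tested. Total-count scaling moved the median of all peaks to 0.16 for 14 against 29 °C.

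Of the 86 regulator peaks, 3 passed with total-count scaling and with the filter, 17 with offsets, 2 with the replicate block, 21 with block and offsets, 0 with only the 2 temperatures, 52 with the block on these, 23 with DESeq2 and 0 to 46 without single libraries. Of all peaks, 2.79% passed with the block, 58.6% with the block on the 2 temperatures, 12.6% with DESeq2 and 49.7% without replicate 2 at 14 °C. No such share was taken with total-count scaling, with the filter, with offsets or with only the 2 temperatures. Among the fits without single libraries it was taken only for replicates 2 and 3 at 14 °C, and was 0 for replicate 3. Counts from fits without a share cannot be set against all peaks. The share of peaks with a Stat92E match was 13.4% over peaks of any width. The within-library ratio of the enhancer peak for 14 minus 29 °C ran between 0.95 and 1.34 for pst and between 1.2 and 1.86 for RNaseX25 without single libraries.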

Other observations

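Across the 15999 peaks of the standard width, those with an ETS match had a median log2 fold change for 14 against 29 °C of 0.21 (2236 peaks), and those without of -0.02 (13763 peaks). The medians with and without a Stat92E match were -0.05 and 0.02, and with and without an Ftz-f1 match 0.05 and 0.01. These are descriptions of the libraries, with no test. Of the peaks with an ETS match 0.939% passed the edgeR test, against 1.34% of those without.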
